A study of Mus musculus with 6 samples.

Results

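The ribosomal protein genes were taken as the protein-coding autosomal genes of the mouse whose symbols are Rpl or Rps with a number, together with Rplp0, Rplp1, Rplp2 and Rpsa, leaving out the Rps6k kinases, Rps19bp1 and pseudogenes. The rule gave 84 members of 20375 protein-coding genes placed on the map. They comprised 43 genes of the large subunit, 30 genes of the small subunit, 8 paralog genes (Rpl3l, Rpl7l1, Rpl10l, Rpl22l1, Rpl32l, Rpl36al, Rpl39l and Rps27l) and 3 retrogenes (Rpl37rt, Rps23rg1 and Rps27rt). Hi-C, in which neighbouring stretches of chromatin are ligated to each other and sequenced as pairs, was run on wild type E14 mouse embryonic stem cells, a male line kept in serum and LIF. Control cells were transfected with esiRNA (a pool of enzymatically cut short interfering RNAs) against EGFP, Brg1KD cells with esiRNA against Smarca4, and Ino80KD cells with esiRNA against Ino80, and all were harvested after 48 h. Smarca4 codes for Brg1, which drives the chromatin remodeller esBAF, and Ino80 codes for the motor subunit of the remodeller INO80. Each group had 2 libraries, replicate 1 from batch 1 and replicate 2 from batch 2, and nothing in the labels says whether they were separate cultures, so any p-value measures the spread between these libraries only, which may be technical. The knockdown was transient, and how much protein remained is not known here.

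Ribosomal proteins bind the ribosomal RNAs and with them form the small subunit, which reads the messenger RNA, and the large subunit, which joins the amino acids. Their genes are scattered over the genome, short, strongly transcribed in dividing cells such as embryonic stem cells, and the messages share a pyrimidine-rich start by which translation answers to growth signals. Hi-C separates the active A compartment from the inactive B compartment, and a finer division into subcompartments orders the genome from the most A-like to the most B-like state.

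Promoter sequences were read from RefSeq promoters on GRCm38.p6 (mm10), a table that matched 64 of the 84 members and 16308 of all genes placed. The windows below run from 100 bases before the listed start to 20 bases from it on, 5′ to 3′ in the direction of transcription, and capitals mark matches to the motifs searched, on either strand. The first 3 are members whose start lay inside a loop anchor: Rpl26 (chr11:68901466-68901585, plus strand), Rpl7l1 (chr17:46782637-46782756, minus strand) and Rpl13 (chr8:123102250-123102369, plus strand). The next 3 are members found in B: Rps23 (chr13:90923022-90923141, plus strand), Rpl10l (chr12:66284382-66284501, minus strand) and Rpl22l1 (chr3:28805408-28805527, plus strand). The last 2 are examples of subunit genes that held the most A-like label in all 6 libraries and carried in this window both motifs that were most common among the members: Rpl11 (chr4:136053374-136053493, minus strand) and Rpl41 (chr10:128549149-128549268, minus strand).
Rpl26: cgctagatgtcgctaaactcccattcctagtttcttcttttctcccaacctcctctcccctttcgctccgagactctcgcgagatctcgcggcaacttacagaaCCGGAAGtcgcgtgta
Rpl7l1: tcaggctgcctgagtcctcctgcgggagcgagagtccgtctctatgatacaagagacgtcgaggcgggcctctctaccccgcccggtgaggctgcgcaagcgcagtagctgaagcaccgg
Rpl13: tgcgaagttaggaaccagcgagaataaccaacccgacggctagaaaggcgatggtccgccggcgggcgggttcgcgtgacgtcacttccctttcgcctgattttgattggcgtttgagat
Rps23: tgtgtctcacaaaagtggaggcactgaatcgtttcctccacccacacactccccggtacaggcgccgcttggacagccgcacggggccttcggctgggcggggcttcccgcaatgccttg
Rpl10l: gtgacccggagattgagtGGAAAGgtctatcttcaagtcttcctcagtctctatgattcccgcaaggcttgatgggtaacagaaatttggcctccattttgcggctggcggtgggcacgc
Rpl22l1: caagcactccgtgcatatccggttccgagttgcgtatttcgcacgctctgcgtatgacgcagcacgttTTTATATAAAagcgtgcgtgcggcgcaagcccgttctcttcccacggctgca
Rpl11: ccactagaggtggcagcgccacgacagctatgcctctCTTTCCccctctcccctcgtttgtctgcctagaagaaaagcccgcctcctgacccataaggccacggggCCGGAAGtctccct
Rpl41: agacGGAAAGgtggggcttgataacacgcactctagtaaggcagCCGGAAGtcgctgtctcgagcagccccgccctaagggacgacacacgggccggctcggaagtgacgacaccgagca

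Over the whole 300-base window of the table (250 bases before to 50 after the start), the ETS-type motif CCGGAAG was present in 24 of 64 member promoters (37.5%), against 12.3% of all promoters. The pyrimidine motif CTTTCC was present in 30 (46.9%, against 25.9%), and ATGGCG, the core of the YY1 motif, in 19 (29.7%, against 11.4%). The E-box CACGTG was found in 5 member promoters (7.81%, against 8.01%) and the TATA box TATAAA in 5 (7.81%, against 13.4%). All motifs were searched on both strands, and in 1 member promoter matches of the first 3 motifs overlapped each other. A match could lie anywhere in the window, so the count of CTTTCC does not measure the pyrimidine-rich start of the messages. Median GC content was 57.7% in member promoters and 57.0% in all promoters. The first 3 motifs were thus more frequent in members at almost the same base composition, and the E-box was about as frequent as elsewhere. None of this was tested, and a match describes letters, not binding. Rpl39l, a member found in B whose window is not printed above, had 2 matches to CCGGAAG, 1 to CTTTCC and 1 to ATGGCG. Rps23, Rpl10l and Rpl22l1 had no CCGGAAG over the same window. The printed windows are chosen examples and do not show whether these motifs differ between members in A and in B.

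The 6 libraries were labelled per segment with 1 of 8 subcompartments, ranked from 1 (B.2.2) to 8 (A.1.1), and the analysis rests on 47717 bins of 50 kb that had a rank in every library. A label is a call over all cells of a library, so a change in every cell and a change in some of them cannot be told apart. Libraries of a group had the same label in 68.3% to 69.5% of bins, and libraries of different groups in 62.1% to 71.7%. Depth is unknown, since the files give no read numbers. Of the markers, 4 of 6 for pluripotency and 0 of 6 for fibroblasts were in A.1.1 in both controls. Only 2 fibroblast markers were in B in any library, and Thy1 read A.1.2 in both controls, like the pluripotency markers Klf4 and Zfp42. The pluripotency gene Pou5f1 was in A.1.1 in all 6 libraries. Smarca4 and Ino80 were in A.1.1 in all 6 libraries as well, which says nothing about their knockdown because Hi-C gives no transcript level.

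Ribosomal protein genes sat mostly at the top of the A scale in every library. In Control, 52 and 56 of the 84 members were in A.1.1 (61.9% and 66.7% in replicates 1 and 2), against 37.0% and 40.7% of all genes. In Brg1KD the member share was 59.5% and 72.6%, against 38.2% and 42.4%. In Ino80KD it was 66.7% and 70.2%, against 38.9% and 41.7%. The member share exceeded that of all genes in each of the 6 libraries, and replicate 2 exceeded replicate 1 in each group, for the members and for all genes alike. Between 95.2% and 97.6% of members were in A, against 71.1% to 72.2% of all genes. The mean rank of the members was 7.35 ± 0.00842 (SD, n = 2) in Control, 7.39 ± 0.143 in Brg1KD and 7.37 ± 0.0337 in Ino80KD, and that of all genes lay between 5.87 and 5.89. The member groups differed by less than the spread of the Brg1KD libraries, and 2 libraries against 2 cannot reach an exact permutation p below 0.333.

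**Figure D1:**
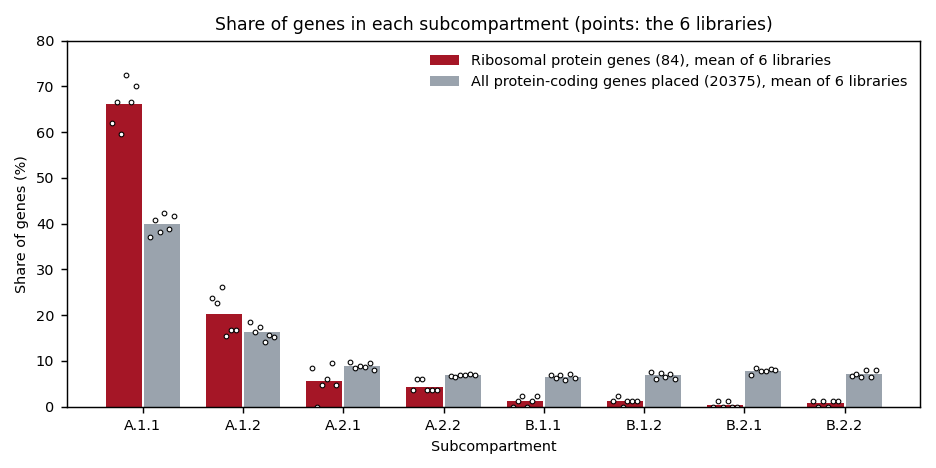
Share of genes (%) in each subcompartment, from A.1.1 to B.2.2, for the 84 ribosomal protein genes and all 20375 genes placed; bars are means of the 6 libraries and points the single libraries. The points of the members in A.1.1 lie between 59.5% and 72.6%, and those of all genes between 37.0% and 42.4%.

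A.1.1 was held in all 6 libraries by 43 members (51.2%), against 30.5% of all genes. In symbol order the first were Rpl10a, Rpl11, Rpl12, Rpl13a, Rpl17 and Rpl18. Rpl11 forms with Rpl5 and the 5S RNA the particle that binds Mdm2, and Rpl5 was also in A.1.1 throughout. Of the stalk proteins, which recruit the translation factors to the large subunit, Rplp0 and Rplp2 were in A.1.1 in all 6 libraries and Rplp1 in A.1.2 in all 6. A.1.2 throughout was also the label of Rpl34, Rpl37 and Rps27l, and 48 of the 84 members (57.1%) never changed label, against 44.8% of all genes. Members that started in A.1.1 were no steadier than other genes that did: 43 of the 50 in A.1.1 in both controls were there in all 4 knockdown libraries (86.0%), against 87.9% of all such genes. For A.1.2 the same shares were 5 of 14 members (35.7%) and 38.9%.

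By role, large subunit genes had a mean rank of 7.56 and 7.63 in the 2 controls and small subunit genes 7.27 and 7.33. A.1.1 in both controls was held by 29 of 43 large subunit genes (67.4%) and 16 of 30 small subunit genes (53.3%). The paralog genes lay lower, at 6.38 and 5.88, with 3 of 8 in A.1.1 in both controls. The retrogenes, which arose by copying of a message back into DNA, stood at 7.67 in both controls. Roles were set by gene symbol alone, so the paralog genes may include copies of this kind. Large subunit genes were thus ahead of small subunit genes in both controls, a description that was given no test.

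**Figure D2:**
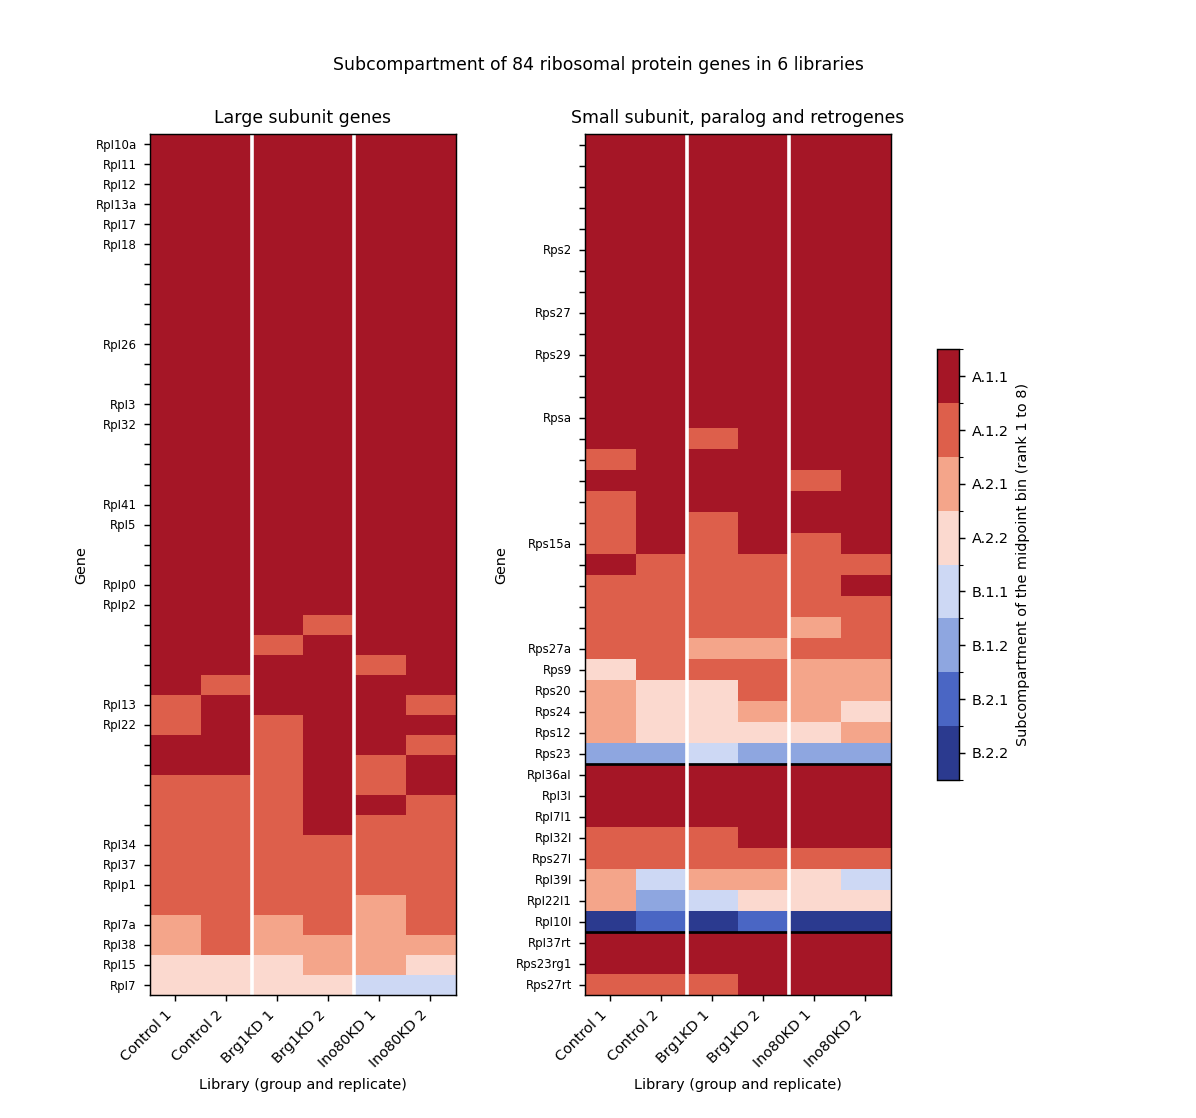
Subcompartment of the midpoint bin of each of the 84 members (rows, ordered within a role by their summed rank) in the 6 libraries (columns), with large subunit genes on the left and small subunit genes, paralog genes and retrogenes on the right, separated by black lines. The 43 members in A.1.1 throughout form the uniform dark red blocks, and blue cells mark the 5 members found in B. Rows carry a name where the text describes the gene.

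Members were unevenly distributed over the chromosomes, which was not tested. Chromosome 7 held 14 members (16.7%, against 9.84% of all genes), and chromosomes 9 and 17 held 8 each (9.52%, against 5.86% and 5.11%). Chromosomes 6 and 13 held 1 each (1.19%, against 5.48% and 4.05%). Rps2 and the muscle paralog Rpl3l lay 12 kb apart in a single bin, as did Rps29 and Rpl36al (25 kb). Each of these 4 genes was in A.1.1 in all libraries, but they give only 2 independent labels, and the 84 members occupied 81 bins. The median member was 3206 bases long, against 17660 bases for all genes. The median number of protein-coding genes within 250 kb was 10.5 for members and 9 for all genes. Members not in A.1.1 in both controls had a median of 7 such genes, and the 50 members that were had 15.5, close to the 14 of all genes in A.1.1 in both controls.

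In Control, 12 members were outside A.1.1 and A.1.2 in at least 1 library: Rpl10l, Rps23, Rpl22l1, Rpl7, Rpl15, Rpl39l, Rps20, Rps12, Rps24, Rps9, Rpl7a and Rpl38. Rpl15 and Rps24, both mutated in Diamond-Blackfan anaemia, moved between A.2.2 and A.2.1: Rpl15 was in A.2.2 in both controls, in A.2.2 and A.2.1 in Brg1KD replicates 1 and 2, and in A.2.1 and A.2.2 in Ino80KD replicates 1 and 2. Rps24 read A.2.1 and A.2.2 in Control, A.2.2 and A.2.1 in Brg1KD, and A.2.1 and A.2.2 in Ino80KD. Neither gene separated any group from another. Rps12, of the beak of the small subunit, read A.2.1 and A.2.2 in Control, A.2.2 in both Brg1KD libraries, and A.2.2 and A.2.1 in Ino80KD. Rps20, of its head, read A.2.1 and A.2.2 in Control, A.2.2 and A.1.2 in Brg1KD, and A.2.1 in both Ino80KD libraries. The groups overlapped for both genes. Rpl38, whose loss shortens the tail and alters translation of Hox messages in mice, read A.2.1 and A.1.2 in Control and A.2.1 in all 4 knockdown libraries, so its Control replicate 1 equalled every knockdown library.

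Rpl7a and Rps15a followed the replicate number in all 3 groups. Rpl7a was in A.2.1 in replicate 1 and in A.1.2 in replicate 2 of each group, and Rps15a in A.1.2 in replicate 1 and in A.1.1 in replicate 2. Within a batch neither gene differed between knockdown and Control.

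Only 2 members were in B in every library. Rps23, at the decoding centre of the small subunit, lay at chromosome 13, 90923122 to 90924732, and read B.1.2 in 5 libraries and B.1.1 in Brg1KD replicate 1. It was the only gene of the small subunit found in B, with 3 protein-coding genes within 250 kb (itself included), and the nearest A segment was 674 and 1326 kb away in Control replicates 1 and 2. The plot of the flanks shows the gene at or near a step, with B.2 segments on 1 side and B.1 segments on the other. Rpl10l, an intronless paralog of the X-linked Rpl10 that serves in the testis, lay at chromosome 12, 66283379 to 66284401. It read B.2.2 in 4 libraries and B.2.1 in Control replicate 2 and Brg1KD replicate 2, had no other protein-coding gene within 250 kb, and was 1084 kb from the nearest A segment in every library.

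Of the other paralogs, Rpl22l1 and Rpl39l crossed between A and B within the Control group. Rpl22l1, the partner of Rpl22, read A.2.1 and B.1.2 in Control, B.1.1 and A.2.2 in Brg1KD, and A.2.2 in both Ino80KD libraries. Its controls differed by 3 classes, more than any knockdown moved it, and in Control replicate 2 the nearest A segment was 6 kb away. Rpl39l, a testis paralog of the X-linked Rpl39, read A.2.1 and B.1.1 in Control, A.2.1 in both Brg1KD libraries, and A.2.2 and B.1.1 in Ino80KD. Rps9, near the entry channel of the messenger RNA, was the remaining member whose controls differed by 2 classes: it read A.2.2 and A.1.2 in Control, A.1.2 in both Brg1KD libraries and A.2.1 in both Ino80KD libraries. For these 3 genes the spread within Control was as large as any shift or larger. The parents on autosomes stood higher than the paralogs only in part: Rpl3, Rpl32 and Rps27 were in A.1.1 throughout, as were Rpl3l, Rpl7l1 and Rpl36al. Rpl7, the parent of Rpl7l1, was the exception among them, and Rpl22 read A.1.2 in replicate 1 of Control and of Brg1KD and A.1.1 in the other 4 libraries.

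**Figure D3:**
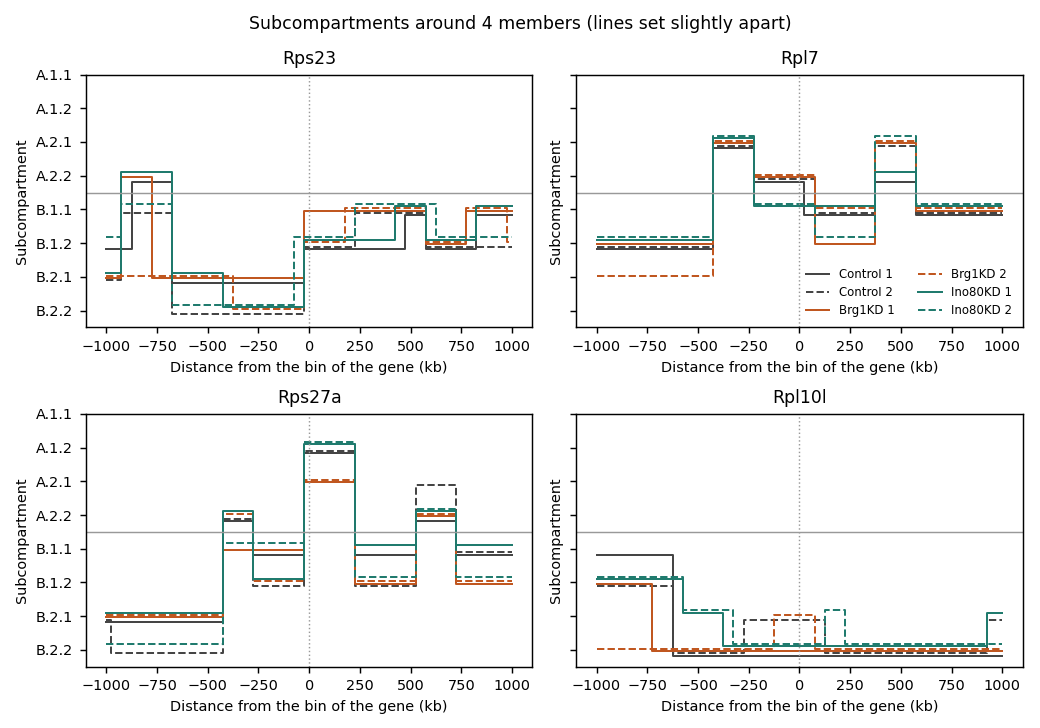
Subcompartment of the bins within 1000 kb of the bin of Rps23, Rpl7, Rps27a and Rpl10l (distance in kb) in the 6 libraries, with lines set slightly apart and the grey line between A and B. The segment of Rps27a lies 1 class lower in both Brg1KD libraries than in both controls, and so do the bins at 750 to 1000 kb to its right. Rpl7 goes from A.2.2 to B.1.1 in both Ino80KD libraries, and the bin of Rpl10l stays in B.2 while its flank reaches B.1.

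The comparison of Brg1KD with Control asked whether loss of the esBAF ATPase moved ribosomal protein genes between subcompartments. In 61 members the mean shift was 0 classes (72.6%, against 59.8% of all genes), 14 were above 0 (towards A) and 9 below (towards B). A mean of 0 includes members that moved oppositely in the 2 batches, such as Rps24 and Rpl22l1, and the 50 members already in A.1.1 in both controls could not move further towards A. The median shift was 0 classes and the mean 0.0357, which was -0.0595 in batch 1 and 0.131 in batch 2, so its sign turned between batches. For all genes the median was 0 and the mean -0.0046. limma, fitted over all bins, called 0 members towards A, where 1.53% of bins were called, and 1 towards B, where 3.3% of bins were called. Of the 20375 genes placed, 304 lay in bins called towards A and 405 in bins called towards B. In no member did both Brg1KD libraries lie above both controls (3.13% of bins, 3.29% of all genes). In 1 they lay below both (7.19% of bins, 4.34% of all genes). At an unadjusted limma p under 0.05 the counts were the same, 0 and 1, and the share of all bins at that threshold was not counted.

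That member was Rps27a, which encodes a protein of the small subunit made as a fusion with ubiquitin (chromosome 11, 29545842 to 29548040). It read A.1.2 in both controls, A.2.1 in both Brg1KD libraries and A.1.2 in both Ino80KD libraries. The shift in Brg1KD was thus -1 class in each batch, and the groups did not overlap (limma, Benjamini-Hochberg adjusted p = 8e-08). With a variance common to all bins the shift did not pass (adjusted p = 0.236). The p-values of limma are not calibrated on these ranks, since 18941 bins (39.7%) had no residual spread, among them 47 of the 81 member bins, and any step between groups passes in such a bin. The gene lay in a segment of 250 kb in both controls, 47 kb from the nearest border between A and B, and moved with its whole segment in the plot of its flanks. The nearest loop anchor was 12 kb away in the Control list and 1.96 kb away in the Brg1KD and Ino80KD lists.

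The comparison of Ino80KD with Control asked the same of the INO80 ATPase. Again 60 members had a shift of 0 (71.4%, against 64.3% of all genes), with 13 above and 11 below, a median of 0 classes and a mean of 0.0179 (0 in batch 1, 0.0357 in batch 2). For all genes the median was 0 and the mean -0.0245. limma called 0 members towards A (0.855% of bins) and 1 towards B (2.37% of bins). Of the 20375 genes placed, 187 lay in bins called towards A and 316 in bins called towards B. Both Ino80KD libraries lay above both controls in 2 members (1.76% of bins, 1.97% of all genes) and below both in 1 (4.5% of bins, 2.86% of all genes). At an unadjusted limma p under 0.05 the counts were again 0 and 1, with no count over all bins beside them.

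The member called was Rpl7, of the large subunit (chromosome 1, 16101295 to 16104433). It read A.2.2 in both controls and in both Brg1KD libraries, and B.1.1 in both Ino80KD libraries, where it crossed from A to B. The shift was -1 class in each batch (limma adjusted p = 1.2e-07, and 0.362 with a common variance). In both Ino80KD libraries the nearest A segment was 203 kb away. In both controls the gene lay in an A.2.2 segment of 250 or 300 kb, 47 or 97 kb from the border with B. The retrogene Rps27rt and the paralog Rpl32l read A.1.2 in both controls and A.1.1 in both Ino80KD libraries (adjusted p = 0.97 for each), and both also read A.1.1 in Brg1KD replicate 2 and A.1.2 in Brg1KD replicate 1.

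**Figure D4:**
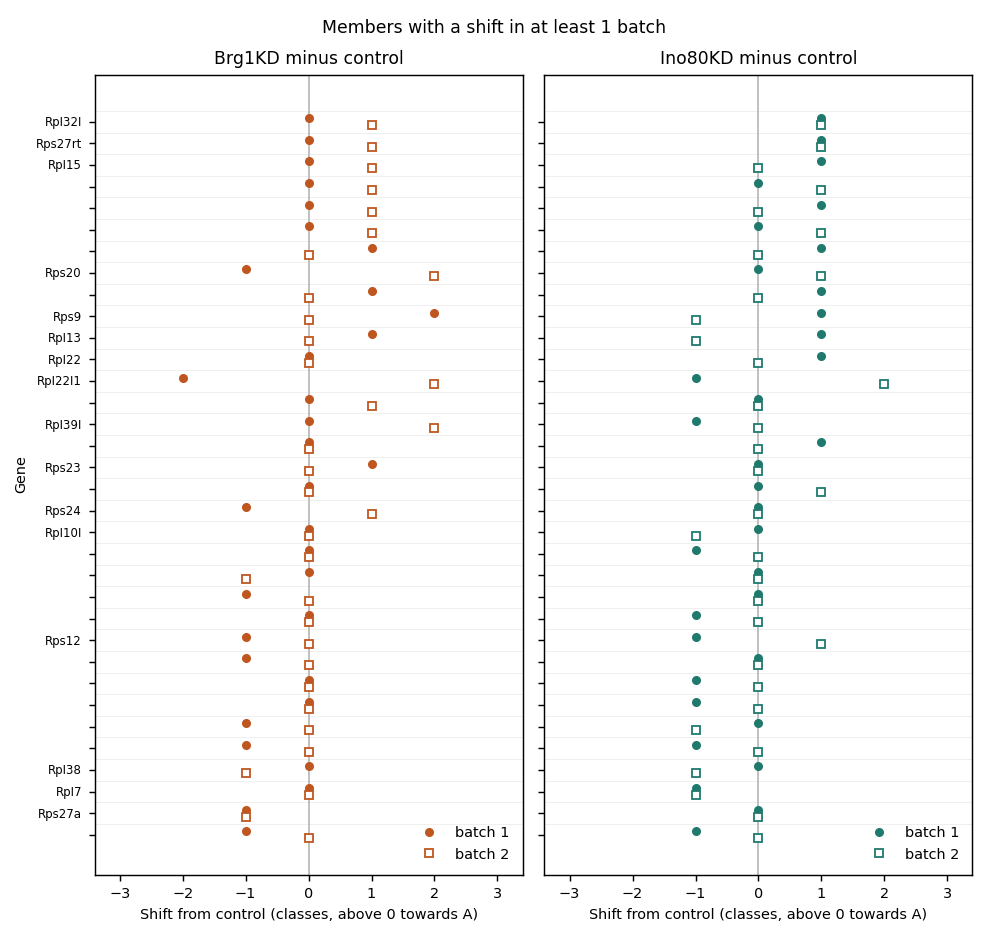
Shift from Control in classes (above 0 towards A) of the 34 members that moved in at least 1 batch of at least 1 knockdown, for Brg1KD (left) and Ino80KD (right); filled circles are batch 1 and open squares batch 2. Rps27a lies at -1 in both batches of Brg1KD and Rpl7 at -1 in both batches of Ino80KD, while most other genes moved in 1 batch only; the other 50 members, not drawn, lie at 0 throughout, and rows carry a name where the text describes the gene.

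Both comparisons use the same controls, so their values are set side by side only, and the knockdowns were compared with each other directly. Brg1KD against Ino80KD gave a median member shift of 0 classes and a mean of 0.0179 (-0.0595 in batch 1 and 0.0952 in batch 2), and for all genes 0 and 0.02. Of the 20375 genes placed, 289 lay in bins called towards A in Brg1KD and 267 in bins called towards B. Among the members, limma called 1 towards A in Brg1KD (1.82% of bins) and 1 towards B (2.14% of bins). They were Rpl7, 1 class higher in Brg1KD, and Rps27a, 1 class lower (limma adjusted p = 9.78e-08 for each, and 0.269 with a common variance). Both Brg1KD libraries lay above both Ino80KD libraries in 3 members (4.24% of bins, 3.95% of all genes), which were Rpl7, Rps9 and Rpl39l. They lay below both in 1, Rps27a (4.63% of bins, 3.23% of all genes). Rps9 differed by 1 class and Rpl39l by 1.5 classes, with adjusted p = 0.866 for each, and in both genes the controls spanned the values of the knockdowns.

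Other genes of ribosome production and translation stood near the members. A.1.1 in both controls was held by 21 of 34 ribosome biogenesis genes (61.8%), 7 of 11 genes of RNA polymerase I and its factors (63.6%), 15 of 25 translation factors (60.0%) and 2 of 3 other ribosome genes, against 59.5% of members and 34.7% of all genes. Of the 78 mitochondrial ribosomal protein genes, whose products form the separate ribosome of mitochondria, 41 did (52.6%). Median shifts of each list were 0 classes in both knockdowns. In Brg1KD, 3.3% of bins and 405 of the 20375 genes placed were called towards B. There limma called 1 translation factor, Eif4a2, and 1 mitochondrial gene, Mrps27. Both read A.1.1 in each control and A.1.2 in each Brg1KD library (limma adjusted p = 8e-08). In Ino80KD, 2.37% of bins and 316 genes were called towards B, and 0.855% of bins and 187 genes towards A. There limma called Mrpl19, from A.2.1 to A.2.2, and Mrps33, which rose 4 classes (limma adjusted p = 1.2e-07 for each). Mrps33 read B.1.1 in both controls and both Brg1KD libraries and A.1.1 in both Ino80KD libraries. In the bins of Eif4a2, Mrps27, Mrpl19 and Mrps33 both libraries of each group had the same label. With no residual spread there, these p-values are not calibrated, and none with a common variance is given for these genes. Of the biogenesis list, RNA polymerase I and the other ribosome genes limma called 0 in any of the 3 comparisons. At an unadjusted limma p under 0.05 there was 1, the biogenesis gene Ebna1bp2, higher in both knockdowns than in Control. How many of all bins passed at that threshold was not counted.

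Loops, pairs of 10 kb anchors that touch more often than their surroundings, had few members in their anchors. A member end lay inside an anchor in 3 members in Control (3.57%, against 11.7% of all genes), in 6 in Brg1KD (7.14%, against 11.7%) and in 4 in Ino80KD (4.76%, against 11.3%). Members are short, and among the genes under 10 kb the shares were 8.36%, 8.28% and 8.57% in the Control, Brg1KD and Ino80KD lists. Over the 3 lists together 7 members had a loop at an end (8.33%), against 12.3% of genes under 10 kb and 17.5% of all genes. Each list is single and names a merged set of libraries, with no score per loop, so these counts have no replicate error, and a loop absent from a list is not shown to be absent from the cells.

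Anchors lay near many members. An end within 10 kb of an anchor but outside it was found for 17, 13 and 15 members in Control, Brg1KD and Ino80KD (20.2%, 15.5% and 17.9%), against 10.1%, 10.2% and 9.33% of genes under 10 kb and 16.0%, 16.1% and 15.3% of all genes. The median distance from a member to the nearest anchor was 20.3, 24.3 and 31.3 kb in the 3 lists, against 34.6, 33.8 and 39.0 kb for all genes and 65.3, 65.5 and 76.1 kb for genes under 10 kb. The lower quartile in Control was 10.9 kb for members and 2.44 kb for all genes. Members lay between the anchors of a loop less often, at 26.2%, 17.9% and 22.6%, against 39.7%, 38.3% and 36.0% of genes under 10 kb.

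Part of this changed when only genes in A.1.1 in both controls were compared, 50 members with 2576 genes under 10 kb. An end lay inside an anchor in 4.0%, 8.0% and 8.0% of these members in Control, Brg1KD and Ino80KD, against 8.62%, 8.54% and 8.54% of the short genes, so the shares were close in both knockdown lists. An end lay in an anchor or within 10 kb of it in 22.0%, 20.0% and 22.0% of them, against 20.4%, 21.1% and 19.8%, which are also close. The median distance to an anchor was 19.6, 18.7 and 24.9 kb, against 45.7, 43.8 and 48.3 kb. Between the anchors of a loop lay 20.0%, 18.0% and 20.0% of these members, against 34.9%, 33.8% and 32.8%. The shorter distance and the lower share inside loops were thus present in each list and against both sets of short genes, with no test.

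**Figure D5:**
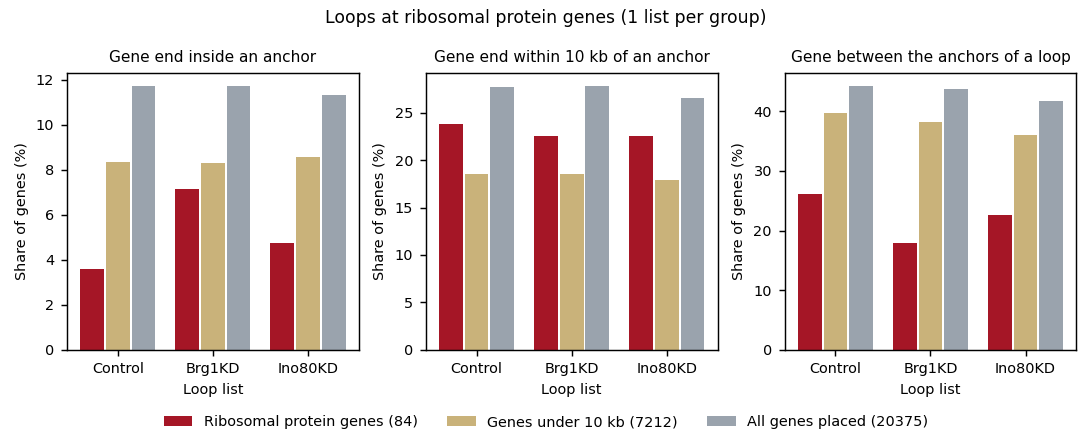
Share of genes (%) with an end inside a loop anchor (left), with an end within 10 kb of an anchor, inside it included (middle), and lying between the anchors of a loop (right), in the single loop list of each group, for members, genes under 10 kb and all genes placed. Members are lowest of the 3 sets in the left and right panels in every list, and between the other sets in the middle panel.

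Of the members with loops, 2 had the identical loop in all 3 lists. Rpl26, a large subunit protein that also promotes translation of the p53 message, had its start in an anchor that met, 80 kb away, an anchor at the purine synthesis gene Pfas. Rpl7l1 had its start in an anchor whose partner 90 kb away lay within Bicral. Both ends of these loops were in A.1.1 in all libraries, and the promoter windows of both genes are printed above, that of Rpl26 with CCGGAAG close to its listed start.

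Other loops were in some lists only. Rpl34 had a loop of 520 kb to Hadh, a gene of fatty acid oxidation, in Control, through its end away from the start, and no matching loop within 10 kb in the knockdowns. Rpl17, at the exit tunnel of the large subunit, had a loop of 780 kb to Cxxc1, which encodes a CpG-binding protein, in Brg1KD and Ino80KD and none within 10 kb of it in Control. The bin of the Cxxc1 anchor read A.2.1 in both Control and both Ino80KD libraries and A.1.2 in both Brg1KD libraries. Rpl13 had a loop of 260 kb to the cadherin gene Cdh15 in Brg1KD, a loop in Control within 10 kb of it, and none in Ino80KD. Of the 6 member loops in Brg1KD, 2 were in all lists with identical anchors and 4 when anchors could differ by 10 kb, and of all autosomal loops in that list 30.6% and 64.7% were.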

How the data were processed

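The labels' protocols describe Hi-C of E14 cells 48 h after transfection, with 1 deposited file of subcompartment segments per library. The authors' segments carry a score, the rank of the subcompartment, relative to each library. The deposited loop lists give only anchor positions; they are recorded with replicate 2 and named merged. The submitters' processing notes name mm10, Juicer 2.0, BWA, HOMER, SAMtools and bedtools without their roles. What called subcompartments and loops is not stated there. Depth is unknown.

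Segments were cut into 50 kb bins. Genes were placed by midpoint with the RefSeq table of GRCm38.p6. Ranks of 47717 bins were tested in R 4.3.3 by a single limma 3.58.1 model of the 3 groups (eBayes, Benjamini-Hochberg threshold 0.05). A run on simulated data came first, and its pass criterion covered the sizes of shifts, not the calls. Other values were computed in Python 3.11.15. A shift is a difference of group means in classes. A loop was a member's if a gene end lay in an anchor. The lists of members and of other genes were chosen with earlier results of these data known. Named were members called, apart between groups, in B, below A.1.2 in a control, with uneven controls or with loops, members sharing a bin, paralogs and their parents, and called genes of the other lists; Ebna1bp2, Rpl7a, Rps15a and the examples Rpl5, Rplp0 and Rplp2 were chosen after their values were seen. The labels name the replicate number as the batch, so numbers pair the libraries. Deviations from group means correlated over bins at 0.0984 for Brg1KD with Control, 0.102 for Ino80KD with Control and 0.0885 between the knockdowns. Alternatives were batch as a block, a common variance, centred ranks, fewer libraries, gene ends in place of midpoints, no paralogs, wider anchors and gene bodies. Those without retrogenes, with the annotated start in the anchor and with common variance plus block were chosen after seeing the data. Some members and 1 loop partner are not reported here by name; the counts include them.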

Additional observations from a re-analysis of the deposited data

Results flagged for a closer look

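The direct test of Brg1KD against Ino80KD called 2 of the 84 members. In the same test 1.82% of bins were called towards A in Brg1KD and 2.14% towards B. Of the 20375 genes placed, 289 and 267 lay in such bins, so the calls are not particular to the members. Rpl7 was 1 class higher in Brg1KD than in Ino80KD, A.2.2 against B.1.1 in both libraries of each group (limma, adjusted p = 9.78e-08). Rps27a was 1 class lower in Brg1KD than in Ino80KD, A.2.1 against A.1.2 in both libraries of each (limma, adjusted p = 9.78e-08). Both p-values come from bins with no residual spread, and with a common variance both were 0.269. With 2 libraries in a group, no library was tested for standing apart from the others.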

How the results depend on the processing

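With the replicate block, that is batch as a term in the fit, limma called the same members: 1 in Brg1KD, 1 in Ino80KD and 2 between the knockdowns, and no call among the members changed. Centred ranks, bins of either gene end and lists without paralog genes gave the same counts of 1, 1 and 2. Rps27a and Rpl7 are not paralog genes, and each has both ends in the bin of its midpoint. The settings with gene ends and without paralog genes thus could not have lost their calls. A variance common to all bins left 0, 0 and 0 members called, and with the block added 0, 0 and 1, the last being Rpl39l in Brg1KD against Ino80KD. Fits of only the 4 libraries compared called 3 members in Ino80KD, adding Rps27rt and Rpl32l, and 3 in Brg1KD against Ino80KD, adding Rps9. The share of all bins called in these fits was not counted. In the bins of Rps27a and Rpl7 both libraries of each group had the same rank. Adding the block or leaving out libraries thus left no residual spread there, and such fits could not have lost these calls. Their calls under those settings are therefore no test of stability. The common variance could have lost them, and did. Leaving out 1 library gave 3 to 5 members in Brg1KD, 2 to 5 in Ino80KD and 3 to 7 between the knockdowns, since fewer libraries leave more bins with no spread; Rps27a and Rpl7 were among them each time in their comparisons.

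The mean rank of the members moved from 7.35 to 7.48 in Control and from 7.37 to 7.49 in Ino80KD without paralog genes, to 7.47 in both without retrogenes too, and to 7.34 in Control with the lower gene end. Leaving out 1 library gave 7.35 to 7.36 in Control, 7.29 to 7.49 in Brg1KD and 7.35 to 7.39 in Ino80KD. Members in A.1.1 in the library left numbered 52 to 56, 50 to 61 and 56 to 59 in the same order. With anchors widened by 10 kb, 20, 19 and 19 members had a loop. With the annotated start in the anchor 3 did in Brg1KD and 2 in Ino80KD, among the 64 members with a start, and without paralog genes and retrogenes 2 did in Ino80KD. Member loops in all lists rose from 2 to 4 in Brg1KD with a tolerance of 10 or 20 kb. Depth is unknown, so what it limits cannot be stated.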
